A study of Homo sapiens with 4 samples.

Results

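Ribosome biogenesis and transcription by RNA polymerase I (Pol I) were examined in SKOV3-ALDH+ OCSCs through 44 genes, taken by symbol from the 23228 gene symbols counted. The genes fall into 8 roles: 3 miRNA genes selected as lying in ribosomal RNA (rRNA) units, 5 Pol I subunits, 6 Pol I initiation factors, 3 core proteins of box C/D snoRNPs, 4 of box H/ACA snoRNPs, 6 nucleolar scaffold proteins and helicases, 8 factors of small subunit assembly and 9 of large subunit assembly. All 44 symbols were found and all 44 passed the filter on low counts, which kept 14473 genes. The genes were chosen with the LY500307 against vehicle contrast of these samples in view, so that contrast is described below for each of them and not tested.

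SKOV3 is a human cell line long grown from an ovarian cancer. In both groups, ovarian cancer stem cells (OCSCs) had been sorted with the ALDEFLUOR kit for aldehyde dehydrogenase activity and grown as spheroids in serum-free medium with B27, EGF, bFGF, hydrocortisone and insulin. The Vehicle group (2 samples) received vehicle, and the LY500307 group (2 samples) received 5 µM LY500307, an agonist of estrogen receptor β (ERβ), before RNA isolation at 24 h. Nothing in the labels says that replicates were separate cultures, so p-values measure only the spread between these samples, which may be technical. All samples come from 1 cell line.

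Ribosome production starts in the nucleolus, where Pol I copies the ribosomal DNA repeats into a long precursor. Initiation needs UBTF on the DNA, the selectivity factor SL1 (TBP with the TAF1 proteins) at the promoter and RRN3 on the polymerase. Small nucleolar RNAs guide methylation (box C/D, with fibrillarin) and pseudouridylation (box H/ACA, with dyskerin) of the precursor, while assembly factors cut it, fold it and load ribosomal proteins. The pathway is driven in growing cells by MYC, which binds the E-box CACGTG.

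Total counts on genes ranged from 28841701 to 34943882 per sample. LY500307 replicate 2 stood apart from LY500307 replicate 1: the chi-square statistic of their counts over genes was 42.5 per degree of freedom, compared with 5.16 for the 2 vehicle samples. Values without it are therefore given beside most of the named genes. With 2 samples per group, the counts do not show which of the LY500307 samples is atypical. Of the 10 markers checked against the label, PAX8 had 0 reads in all samples, KRT19 had 0 reads in 3 samples and 2 in the other, CDH1 had at most 4, MUC16 at most 6, ALDH1A3 8 to 16 and KRT8 9 to 33, whereas EPCAM had 6213 to 8327, ERBB2 1452 to 2060, KRT18 668 to 1030 and ALDH1A1 134 to 185. The collagen genes COL3A1 and COL1A2, stromal markers, had 12513 to 16716 and 7291 to 12767 reads, with both LY500307 samples above both vehicle samples (log2 fold changes 0.13 and 0.44), while the blood gene PTPRC had at most 4. These levels leave the SKOV3 label in doubt, and the cells are named by their label. The part of these markers in the results was not tested.

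The mature miRNAs of 2 of the 3 miRNA genes are shown because these genes had the largest differences in the module. The seed, bases 2 to 8, is in capitals. The sequences are from RefSeq (GRCh38.p14), and hsa-miR-3687 had no entry.
hsa-miR-3648: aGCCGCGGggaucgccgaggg
hsa-miR-663a: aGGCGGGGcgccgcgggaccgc
The seeds differ, so these miRNAs form no seed family. Both are rich in G and C.

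MIR3648 lies on chromosome 21 of GRCh37 (9825832 to 9826011, plus strand), and MIR3687 lies 191 bases further on the same strand (9826203 to 9826263). RefSeq puts MIR3648-1 inside RNA45SN2, a gene for the 45S rRNA precursor, with its first base at position 2486 of that gene. For MIR663 the picture was different. RefSeq puts MIR663A inside the long non-coding RNA gene MIR663AHG, and the mature sequence matched GRCh37 exactly at 3 places, on chromosome 20 (26188879 to 26188900, minus strand) and at 2 places on the unplaced contig GL000220.1. RefSeq therefore does not place MIR663A in an rRNA gene. Whether the 2 matches on GL000220.1 lie in rRNA units was not examined. The reads of MIR663 cannot be assigned to 1 locus.

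Reads on the miRNA genes were few in vehicle and more numerous with LY500307. MIR3648 had 119 and 96 reads with vehicle, then 187 and 507 in LY500307 replicates 1 and 2. MIR3687 had 38 and 35 reads with vehicle, then 77 and 340 with LY500307. MIR663 had 29 and 30 reads with vehicle, then 63 and 170 with LY500307. For each gene the groups did not overlap, which also held for 48.6% of all genes tested, and LY500307 replicate 2 was far above replicate 1. In bulk RNA, more cells with a transcript and more of it per cell cannot be told apart. In RPM (reads scaled by the total on genes), MIR3648 was at 3.92 (Wilson 95% interval 3.28 to 4.69) and 3.33 (2.73 to 4.06) in vehicle replicates 1 and 2, 5.35 (4.64 to 6.18) in LY500307 replicate 1 and 16.2 (14.9 to 17.7) in LY500307 replicate 2. The intervals cover counting error only. The interval of LY500307 replicate 1 overlapped that of vehicle replicate 1 for MIR3648. For MIR3687 it was above both vehicle intervals (1.76 to 2.75, compared with upper limits of 1.72 and 1.69), and for MIR663 it overlapped that of vehicle replicate 2 (1.41 to 2.31, compared with 0.729 to 1.48). The interval of LY500307 replicate 2 was above all the others for each gene.

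**Figure D1:**
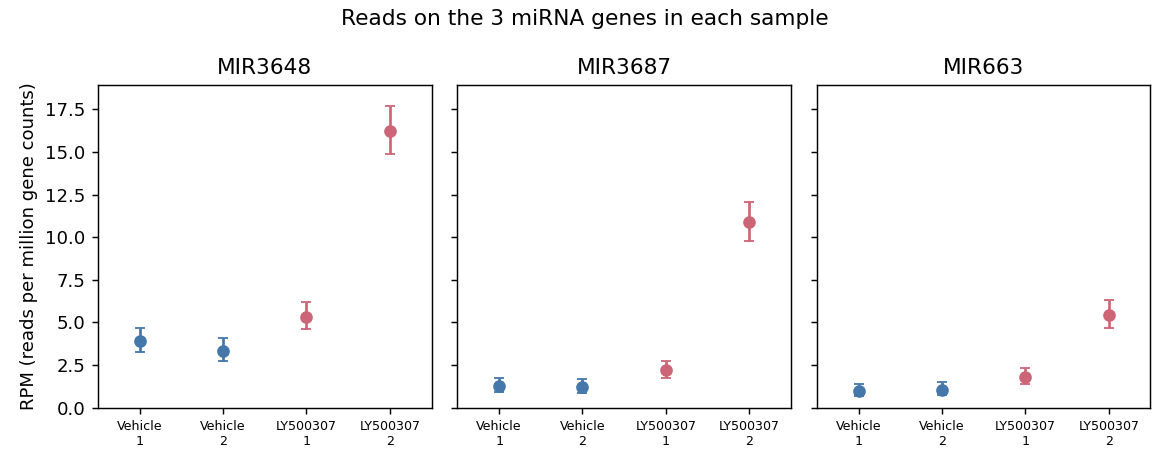
RPM, the reads scaled by the total on genes (vertical axis, linear) on MIR3648, MIR3687 and MIR663 in each of the 4 samples, with Wilson 95% intervals as bars (counting error only). LY500307 replicate 2 is the highest sample in each panel, at 16.2, 10.9 and 5.44 RPM, and LY500307 replicate 1 lies closer to vehicle, at 5.35, 2.20 and 1.80.

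DEGs are genes whose p in edgeR's quasi-likelihood test was below 0.05 before adjustment and whose log2 fold change was beyond 0.5 in either direction, the criteria of the study. Over all genes tested, 4.62% were DEGs, 2.76% with higher counts in LY500307 and 1.86% with lower counts. The 3 miRNA genes met these criteria with higher counts, and 0 of the 41 protein-coding genes met them in either direction. Since the contrast served to choose the genes, nothing is read from these counts. The log2 fold change was 1.52 (standard error 0.45) for MIR3648, 2.34 (0.66) for MIR3687 and 1.80 (0.51) for MIR663. Against both vehicle samples, LY500307 replicate 1 alone gave log2 fold changes of 0.55, 0.83 and 0.84, and of the 44 genes MIR3648 was the one that met the criteria. Without LY500307 replicate 1 these values were 2.09, 3.07 and 2.38.

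The 3 genes did not keep one ratio. MIR3648 had 3.13 and 2.74 times the reads of MIR3687 in the vehicle samples, 2.43 times in LY500307 replicate 1 and 1.49 times in LY500307 replicate 2. The ratio of MIR3648 to MIR663 was 4.10 and 3.20 with vehicle and 2.97 and 2.98 with LY500307. MIR3648 is 83.9% G and C and MIR3687 78.7%, and a correction for GC content took the log2 fold changes to 0.58 and 1.66, at which MIR3648 did not meet the DEG criteria. MIR663 had no GC value and was not corrected. Of the 131 stretches of 50 bases, the read length, in MIR3648, 58.8% occur once in GRCh37, and reads with several alignments (32.3% to 33.4% of all tallied alignments) were not counted on genes. The reads are longer than a mature miRNA, so its level was not measured, and reads from the miRNA gene cannot be told apart from reads of a surrounding transcript. RN5-8S1, the rRNA row in the files, had 0 reads in all samples.

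Each of the 41 protein-coding genes stayed within a log2 fold change of 0.5. The values ran from -0.47 (TAF1D) to 0.40 (NHP2), with a median of -0.07, beside a median of -5.64e-05 over all genes tested. In 18 genes the value was above 0 and in 23 below 0. Both LY500307 samples were above both vehicle samples in 10 genes and below both in 14, and in 17 the groups overlapped. Over all genes tested, 24.2% lay above and 24.4% below.

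Most of the spread came from LY500307 replicate 2. Its log2 differences from the vehicle mean had a median of -0.15 over the 41 genes and ran from -0.90 to 0.68, with an SD over genes of 0.38. In LY500307 replicate 1 the median was -0.03, the range -0.30 to 0.21 and the SD 0.12, close to the SD of 0.11 for the difference between the vehicle samples. A difference within 0.1 was seen in 23 of the 41 genes in replicate 1 and in 6 in replicate 2. Over all genes tested the same SDs were 0.37 for replicate 1, 0.47 for replicate 2 and 0.44 for the vehicle pair. Over 138 other pathway genes, described below, they were 0.12, 0.37 and 0.13, close to those of the 41 genes. Replicate 2 was lower than replicate 1 in 27 of the 41 genes, 86 of the 138 others and 49.4% of all genes tested. It was lower by more than 0.5 in 4 of the 41 (NPM1, NCL, EBNA1BP2 and TAF1D), 9 of the 138 and 7.84% of all genes.

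**Figure D2:**
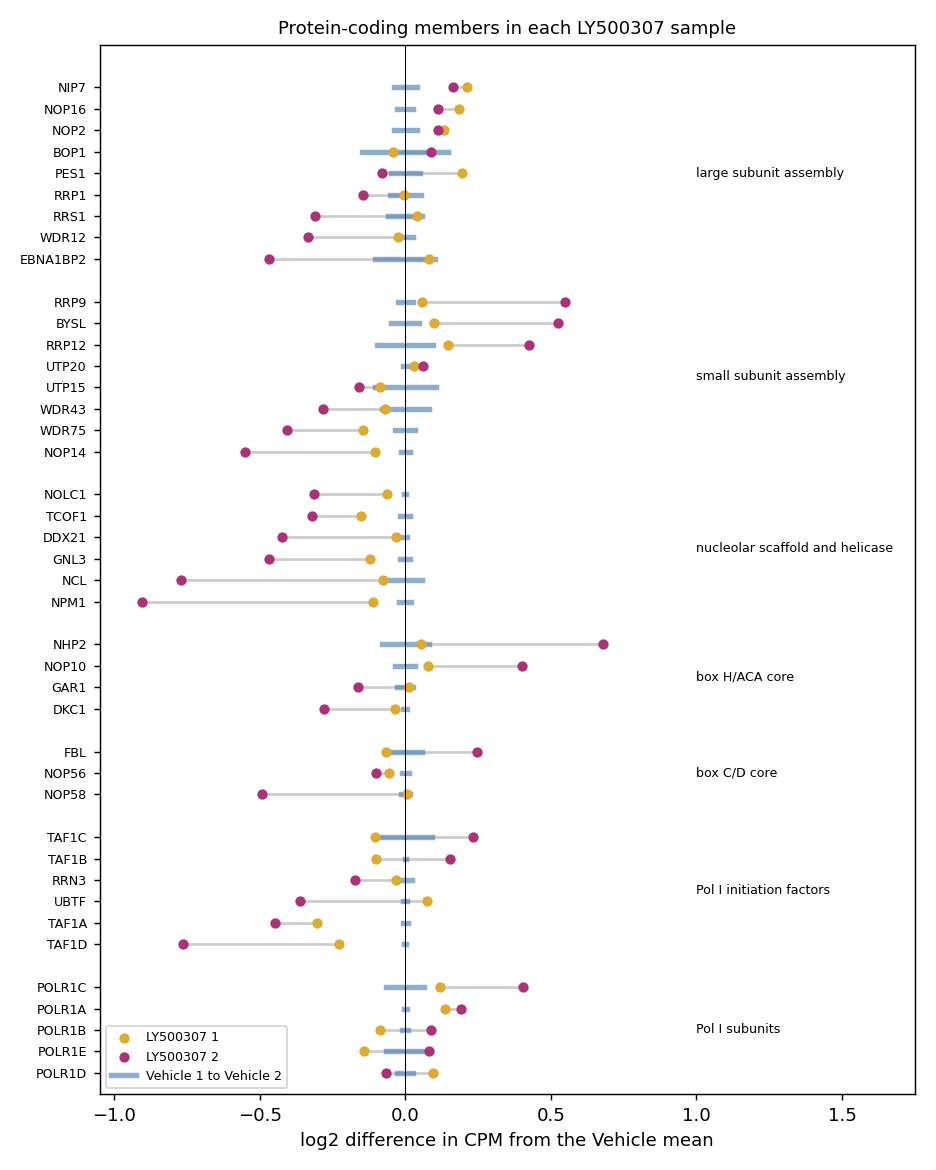
Log2 difference in CPM from the vehicle mean (horizontal axis) for each of the 41 protein-coding genes, grouped by role, in LY500307 replicate 1 (yellow) and replicate 2 (purple). Blue bars are as long as the gap between the vehicle samples, centred on 0; replicate 1 stays between -0.30 and 0.21 and replicate 2 spreads from -0.90 to 0.68.

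The nucleolar scaffold proteins and helicases comprise NCL (nucleolin) and NPM1 (nucleophosmin), abundant RNA-binding proteins of the nucleolus, NOLC1 and TCOF1, scaffolds that bind Pol I and snoRNPs, GNL3 (nucleostemin), a nucleolar GTPase of stem and cancer cells, and the RNA helicase DDX21. In all 6 genes, expression in each LY500307 sample was under that in each vehicle sample, which was so for 24.4% of all genes tested. The median log2 fold change was -0.26. It was -0.09 when LY500307 replicate 2 was left out and -0.44 when replicate 1 was.

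NPM1 (chromosome 5, 170814120 to 170838814, plus strand) was at 515 and 500 CPM with vehicle and at 470 and 272 CPM with LY500307 (log2 fold change -0.45, standard error 0.22). The 2 vehicle values were close together, and LY500307 replicate 2 was far below the other samples. NCL (chromosome 2, 232318242 to 232348352, minus strand) was at 2246 and 2427 CPM with vehicle and at 2212 and 1367 CPM with LY500307 (log2 fold change -0.38, standard error 0.21). LY500307 replicate 1 lay just under the lower vehicle sample, and again replicate 2 was the low one. Of the 50-base stretches of NPM1 89.7% occur once in the genome, and of NCL 98.6%. Without LY500307 replicate 2 the log2 fold changes of NPM1 and NCL were -0.11 and -0.08.

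NOLC1 had the smallest difference of this role, at 592 and 595 CPM with vehicle and 569 and 478 CPM with LY500307 (log2 fold change -0.18, standard error 0.12). The other 3 genes had log2 fold changes of -0.28 (GNL3), -0.23 (TCOF1) and -0.22 (DDX21). The values of NOLC1, GNL3, TCOF1 and DDX21 were -0.06, -0.12, -0.15 and -0.03 without LY500307 replicate 2. The 6 transcripts made up 0.436% and 0.452% of gene counts in the vehicle samples, 0.423% in LY500307 replicate 1 and 0.302% in replicate 2. All 44 genes together held 0.768% and 0.785% of gene counts in the vehicle samples, 0.760% in LY500307 replicate 1 and 0.633% in replicate 2. NCL alone accounted for 0.222%, 0.239%, 0.220% and 0.141%.

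The log2 fold changes of the 5 Pol I subunits of the module lay between -0.03 and 0.27. Of the subunits outside it, TWISTNB and CD3EAP were at -0.18 and -0.13. The others were above 0: ZNRD1 at 0.54, POLR2L at 0.46, POLR2E at 0.27, POLR2H at 0.23, and POLR2F and POLR2K at 0.13. POLR1A, the catalytic subunit, was at 174 and 175 CPM with vehicle and 192 and 199 CPM with LY500307 (log2 fold change 0.16, standard error 0.10), and the groups did not overlap. POLR1C, which Pol I shares with Pol III, was at 35.5 and 32.4 CPM with vehicle and 36.8 and 44.8 CPM with LY500307 (log2 fold change 0.27, standard error 0.14). It was the highest of this role, and its groups did not overlap either, although 18.3% of its exonic bases lie under exons of genes on the opposite strand, and strand use in counting is not given in the sources used here. POLR1E was the lowest, at 48.8 and 44.6 CPM with vehicle and 42.3 and 49.3 CPM with LY500307 (log2 fold change -0.03). In POLR1E, in POLR1B, the second largest subunit (0.0033), and in POLR1D, also shared with Pol III (0.02), the groups overlapped, and for POLR1E and POLR1B LY500307 replicate 1 was below both vehicle samples. For POLR1A, POLR1C and POLR1E the values without LY500307 replicate 2 were 0.14, 0.12 and -0.14.

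Among the initiation factors, 2 proteins of the SL1 complex had the lowest values. TAF1D (chromosome 11, 93463114 to 93517557, minus strand) was at 63.9 and 63.5 CPM with vehicle and 54.5 and 37.5 CPM with LY500307. At -0.47 (standard error 0.17), its log2 fold change was the lowest of the 41 genes, and the groups did not overlap. It was -0.22 without LY500307 replicate 2, and TAF1A then had the lower value. TAF1A, named after its values were seen, was at 23.5 and 23.3 CPM with vehicle and 18.96 and 17.14 CPM with LY500307 (log2 fold change -0.37, standard error 0.14). TAF1A had the lowest value of the 41 genes in LY500307 replicate 1, and its log2 fold change was -0.30 without replicate 2. The other SL1 proteins were closer to vehicle. TAF1B had a log2 fold change of 0.03, and TAF1C, the highest of this role, was at 71.4 and 81.2 CPM with vehicle and 70.9 and 89.6 CPM with LY500307 (0.07, standard error 0.14), with overlapping groups. Both were at -0.10 without LY500307 replicate 2.

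UBTF, which opens and loops ribosomal DNA, was at 241 and 243 CPM with vehicle and 255 and 188 CPM with LY500307. The LY500307 samples lay on opposite sides of vehicle, and the log2 fold change of -0.13 (standard error 0.15) took the sign of replicate 2, as it was 0.08 without it. RRN3, the factor that makes Pol I competent to start, was at 90.3 and 93.2 CPM with vehicle and 89.8 and 81.4 CPM with LY500307 (log2 fold change -0.10, standard error 0.10). Both LY500307 values were below vehicle, the first by less than the gap between the vehicle samples, and without LY500307 replicate 2 the log2 fold change was -0.03. In RRN3, which has near-identical copies, 76.6% of the 50-base stretches occur once in the genome, and its counts are uncertain.

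In the box C/D core, FBL (fibrillarin), the methyltransferase, was at 158 and 146 CPM with vehicle and 145 and 180 CPM with LY500307 (log2 fold change 0.10, standard error 0.13). NOP58, a scaffold protein of the same particle, was at 190 and 186 CPM with vehicle and 189 and 134 CPM with LY500307 (-0.22, standard error 0.16). In both genes LY500307 replicate 1 lay beside vehicle, and replicate 2 was the highest sample for FBL and the lowest for NOP58. NOP56, the partner of NOP58, had a log2 fold change of -0.08. FBL, NOP58 and NOP56 were at -0.06, 0.01 and -0.05 without LY500307 replicate 2.

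In the box H/ACA core the 4 proteins also split. NHP2 (chromosome 5, 177576464 to 177580895, minus strand) was at 36.5 and 32.7 CPM with vehicle and 35.8 and 55.4 CPM with LY500307. Its log2 fold change of 0.40 (standard error 0.20) was the highest of the 41 genes, but it was 0.05 without LY500307 replicate 2, and the groups overlapped. For NHP2, 28.0% of exonic bases lie under opposite-strand exons. DKC1 (dyskerin), the pseudouridine synthase, was at 188 and 186 CPM with vehicle and 182 and 154 CPM with LY500307 (log2 fold change -0.15, standard error 0.11), and the groups did not overlap. NOP10 and GAR1, which complete the particle, had log2 fold changes of 0.25 and -0.07. For DKC1, NOP10 and GAR1 the values without LY500307 replicate 2 were -0.03, 0.08 and 0.01.

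In small subunit assembly, BYSL (bystin), a factor of late 40S maturation, was at 37.6 and 35.2 CPM with vehicle and 39.0 and 52.3 CPM with LY500307 (log2 fold change 0.33, standard error 0.16). NOP14, a factor of early 40S assembly, was at 120 and 123 CPM with vehicle and 113 and 82.9 CPM with LY500307 (-0.31, standard error 0.15). Neither gene's groups overlapped, but without LY500307 replicate 2 the values were 0.10 for BYSL and -0.10 for NOP14. Of the 8 genes of this role, 4 had both LY500307 samples above vehicle (BYSL, RRP9, RRP12 and UTP20) and 2 had both below (NOP14 and WDR75), beside 24.2% and 24.4% of all genes tested. The remaining log2 fold changes were 0.32 for RRP9, a protein of the U3 snoRNP, 0.29 for RRP12 and 0.05 for UTP20. For UTP15, WDR43 and WDR75, which join in a complex that acts early on the precursor, they were -0.13, -0.17 and -0.27. RRP9, RRP12 and WDR75 were at 0.06, 0.15 and -0.14 without LY500307 replicate 2.

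In large subunit assembly the log2 fold changes lay between -0.17 and 0.19. NIP7, a 60S assembly factor, was at 68.5 and 64.9 CPM with vehicle and 77.2 and 74.8 CPM with LY500307 (log2 fold change 0.19, standard error 0.10). Its groups did not overlap, and the LY500307 replicates were close together. WDR12 was at 103 and 107 CPM with vehicle and 103 and 83.0 CPM with LY500307 (-0.17, standard error 0.12). WDR12 forms the PeBoW complex with PES1 and BOP1, whose log2 fold changes were 0.06 and 0.02. BOP1 had at most 204 reads, and 15.4% of its 50-base stretches occur once in the genome, so its counts are uncertain. NOP2, an rRNA methyltransferase, and NOP16 had log2 fold changes of 0.12 and 0.15, with both LY500307 samples above vehicle. Those of RRP1, RRS1 and EBNA1BP2, further nucleolar factors of the 60S subunit, were -0.07, -0.13 and -0.17, with overlapping groups in each. Without LY500307 replicate 2 NIP7 was at 0.21, WDR12 at -0.02, PES1 at 0.20 and EBNA1BP2 at 0.08 on the log2 scale. Exons of genes on the opposite strand cover 20.7% of the exonic bases of NOP14, 18.6% of NOP16, 18.4% of NIP7 and 13.7% of EBNA1BP2.

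Levels per exonic length ranged widely. In RPKM (reads scaled by exon length and by depth, vehicle mean), NCL was the highest at 262, followed by NOLC1 at 150, GNL3 at 71.6 and FBL at 71.1. Exon length was the union of the exons of all annotated transcripts, 8311 bases for NPM1 and 3970 for NOLC1. These lengths may exceed those of the transcripts expressed, so the levels and their order depend on this definition. In CPM, the vehicle means of NPM1 and NOLC1 were 508 and 594. The median gene was at 20.3, POLR1A at 8.85 and BOP1 at 1.62. In this order 16 of the 40 neighbouring pairs, GNL3 and FBL among them, had overlapping vehicle values. NPM1 moved from rank 6 with vehicle to rank 8 with LY500307, and NHP2 from rank 19 to rank 14.

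**Figure D3:**
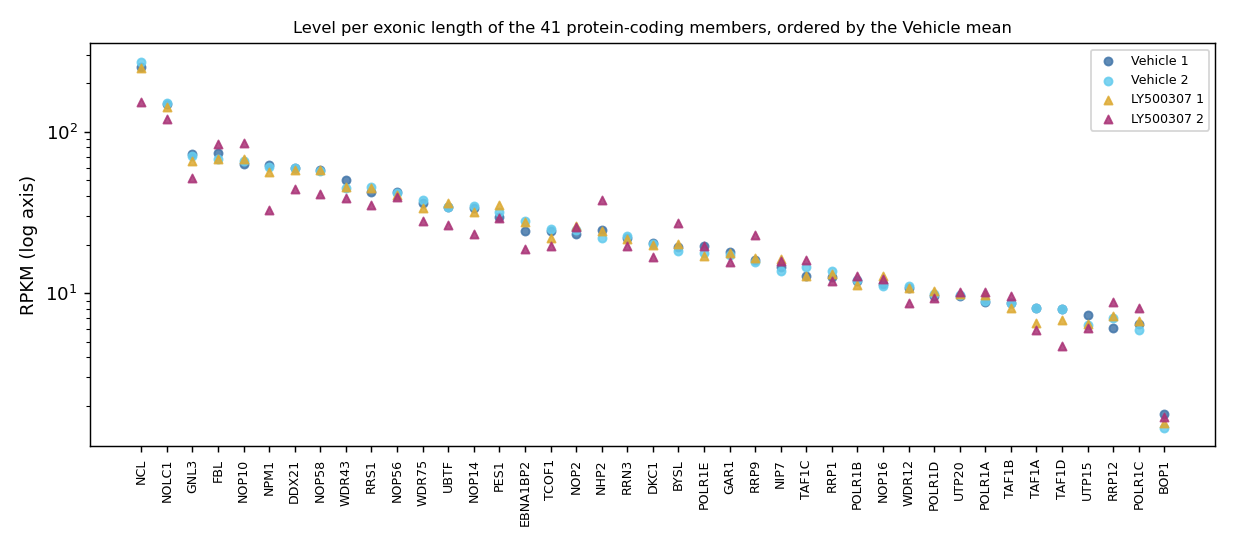
Level of the 41 protein-coding genes in RPKM (vertical axis, logarithmic) in the 4 samples, ordered by the vehicle mean from NCL (262) to BOP1 (1.62). The order depends on the exon lengths used. Circles are vehicle samples and triangles LY500307 samples; for NPM1, NCL and TAF1D the purple triangle of LY500307 replicate 2 lies under the other 3 points.

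Within the module, the difference in LY500307 replicate 2 followed base composition and level. Over the 41 genes, Spearman's rho of this difference was 0.49 with exonic GC content and -0.54 with level. For level, rho was -0.44 over the 138 other pathway genes described below and -0.19 over all genes tested with a GC value. It was 0.28 for the difference between the vehicle samples over the 41 genes. Level is the vehicle mean, which also enters the difference from vehicle. In LY500307 replicate 1 rho with GC content was 0.38, and for the difference between the vehicle samples it was 0.11. All points of one such value share a library and its depth. Over 13793 genes with a GC value, rho with GC content was 0.33, 0.26 and 0.04 for the same differences, so the relation was also present over all genes. Over the 138 other pathway genes rho with GC content was 0.46, 0.41 and 0.04. For the 21 genes at or below the median GC content of 47.0%, the median difference in replicate 2 was -0.28 and 16 genes were below vehicle. For the 20 genes above it the median was 0.10 and 8 were below. The part of base composition in the values of single genes was not tested. With a correction for GC content, the median log2 fold change of the 41 genes was -0.09, and all 6 scaffold and helicase genes were still below 0 (median -0.27).

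**Figure D4:**
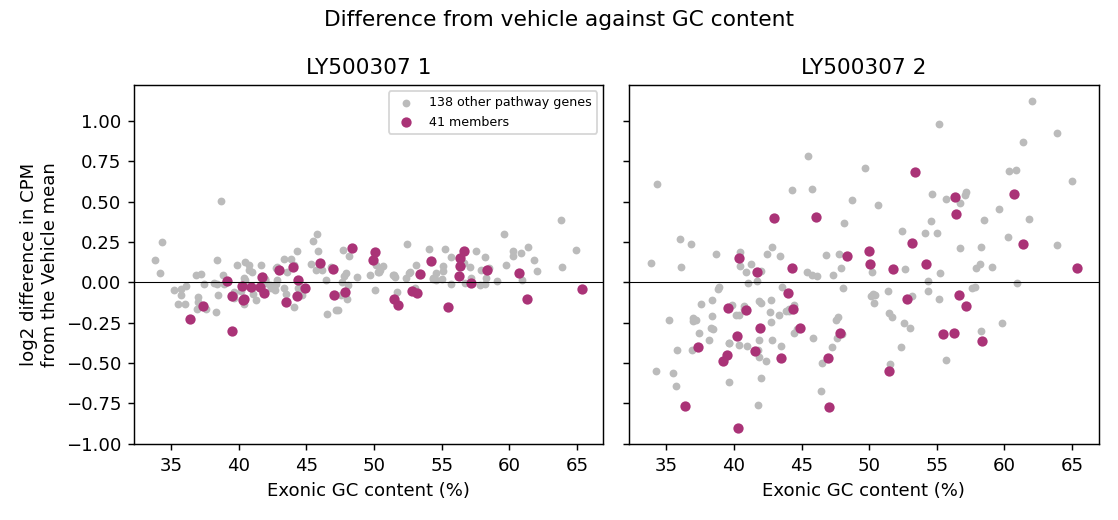
Log2 difference in CPM from the vehicle mean (vertical axis) against exonic GC content in percent (horizontal axis), in LY500307 replicate 1 (left) and replicate 2 (right), for the 41 protein-coding genes (purple) and 138 other genes of the pathway (grey). Points of LY500307 replicate 2 spread more widely and lie lower at low GC content (rho 0.49 for the 41 genes, compared with 0.38 in replicate 1).

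Promoters were compared for the 34 of the 41 genes with a RefSeq entry (POLR1E, NOP58, NOLC1, TCOF1, RRP12, BOP1 and RRS1 had none). Each window held 250 bases before and 50 after the start. The E-box CACGTG, which reads the same on both strands, was found in 10 of the 34 promoters (29.4%) and in 7.44% of all 27305 promoters. All promoters were not matched to the 34 in gene type or base composition, here or for the other sequences below. The 10 were BYSL, EBNA1BP2, FBL, NOP10, NOP14, NOP2, PES1, RRP9, UTP20 and WDR43, and in 9 of them it lay within 50 bases of the start. The promoters of 3 genes, from 250 bases before to 30 after the start, are shown because 2 belong to genes that were higher in LY500307 replicate 2 (FBL and RRP9) and 1 to a gene that was lower (NOP14). The E-box is in capitals, on GRCh38.p14.
FBL, chr19:39846350-39846629, minus strand: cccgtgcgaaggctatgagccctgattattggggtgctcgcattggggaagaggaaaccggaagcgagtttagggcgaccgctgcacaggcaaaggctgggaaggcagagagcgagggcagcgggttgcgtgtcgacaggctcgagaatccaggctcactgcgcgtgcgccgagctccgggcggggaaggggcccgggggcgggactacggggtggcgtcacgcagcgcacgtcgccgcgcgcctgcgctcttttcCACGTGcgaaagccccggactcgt
RRP9, chr3:51941875-51942154, minus strand: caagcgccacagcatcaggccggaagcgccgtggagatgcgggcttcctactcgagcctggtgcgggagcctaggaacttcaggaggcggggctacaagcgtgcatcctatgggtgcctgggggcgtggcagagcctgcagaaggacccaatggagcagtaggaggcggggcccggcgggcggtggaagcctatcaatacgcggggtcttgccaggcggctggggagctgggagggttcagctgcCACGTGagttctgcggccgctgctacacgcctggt
NOP14, chr4:2963377-2963656, minus strand: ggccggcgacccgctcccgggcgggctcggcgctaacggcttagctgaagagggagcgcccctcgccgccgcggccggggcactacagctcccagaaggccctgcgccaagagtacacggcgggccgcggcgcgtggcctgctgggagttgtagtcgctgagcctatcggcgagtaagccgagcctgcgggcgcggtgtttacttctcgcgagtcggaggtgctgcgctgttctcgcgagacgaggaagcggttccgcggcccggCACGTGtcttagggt
The first base of the E-box was base 7 of the transcript in FBL, base 16 in NOP14 and 5 bases before the start in RRP9. The 10 genes with an E-box had log2 fold changes from -0.31 to 0.33 (median 0.08), and the 24 without one from -0.47 to 0.40 (median -0.09). The former also had the higher exonic GC content, with a median of 52.3% compared with 44.3%.

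The ETS-type sequence ACTTCCGG or its complement CCGGAAGT was in 7 of the 34 promoters (20.6%) and in 4.43% of all promoters. The CCAAT box (CCAAT or ATTGG) was in 15 (44.1%), compared with 35.7%, and TATAAA or TTTATA was in 1 (2.94%), compared with 11.95%. The full palindromic estrogen response element (GGTCA, then NNN, then TGACC) was in 0 of the 34 and in 18 of all promoters, which says only that these letters are not in these windows. A match is a description of the sequence and not of binding.

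Other genes of the pathway were taken from a list of 141 symbols in 5 groups, of which 138 were found and all 138 were tested. Of these, 3 were DEGs, all upregulated in LY500307-treated OCSCs, and 0 were downregulated, beside 2.76% and 1.86% of all genes tested. TBL3, a protein of the small subunit processome, had 832 and 940 reads with vehicle and 1373 and 1863 reads with LY500307. The log2 fold change of TBL3 was 0.68, with a standard error of 0.19 (Benjamini-Hochberg adjusted p = 0.422, edgeR). EIF6, which keeps the 60S subunit from joining early, had 1312 and 1155 reads with vehicle and 1700 and 2489 reads with LY500307. For EIF6 the log2 fold change was 0.58, with a standard error of 0.20 (adjusted p = 0.422, edgeR). ZNRD1, a small Pol I subunit, had 446 and 473 reads with vehicle and 652 and 877 reads with LY500307. For ZNRD1 the log2 fold change was 0.54, with a standard error of 0.19 (adjusted p = 0.422, edgeR). Without LY500307 replicate 2 these log2 fold changes were 0.38, 0.22 and 0.26, and the criteria were not met. With a correction for GC content EIF6 was at 0.46 and did not meet them either, and without vehicle replicate 1 ZNRD1 was at 0.46. EIF6 also missed them without vehicle replicate 2 (0.52).

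The adjusted p was below 0.05 for 0 of the 138 genes in edgeR's test, and 16 had an unadjusted p below 0.05. DESeq2, fitted without that filter, gave an adjusted p below 0.05 for 16 of 18407 genes. In edgeR it was 0 of 14473, with 1678 at an unadjusted p below 0.05. Both LY500307 samples were above vehicle in 31 of the 138 genes and below in 29, and the groups overlapped in 78, beside 24.2% above and 24.4% below over all genes tested. The median log2 fold change was -0.01, with 63 genes above 0 and 75 below. The highest value was that of PPAN, a large subunit factor, with 114, 107, 138 and 267 reads in the 2 vehicle and 2 LY500307 samples (log2 fold change 0.69, standard error 0.34, unadjusted p = 0.0765 from edgeR). The lowest was that of RBM28, another large subunit factor, at -0.34 (standard error 0.12). By group, medians were 0.13 for 13 other Pol I genes, -0.0025 for 46 small subunit genes, -0.04 for 49 large subunit genes, -0.01 for 13 genes of snoRNP assembly and rRNA modification and -0.03 for 17 genes of the exosome and rRNA trimming.

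Several of the 44 genes carry snoRNA genes in their introns. All 26 snoRNA rows examined lie inside their named host in RefSeq, and 13 passed the filter on low counts. This list was written with the study's own list of changed genes known, so its direction is not independent evidence. Of the 13, 4 were DEGs and all were downregulated, beside 1.86% of all genes tested. With DESeq2, the tool of the study, SNORD57 was the 1 of these 4 rows that met the criteria. SNORD57, a box C/D snoRNA within NOP56, had 89 and 75 reads with vehicle and 38 and 31 reads with LY500307. The log2 fold change was -1.44, with a standard error of 0.31 (adjusted p = 0.422, edgeR), and the groups were well apart with close replicates. SNORD56, also within NOP56, had 33 and 20 reads with vehicle and 15 and 8 with LY500307 (log2 fold change -1.39, standard error 0.55). SNORD19, within GNL3, had 40 and 20 reads with vehicle and 11 and 16 with LY500307 (log2 fold change -1.33, standard error 0.55). SNORA40, a box H/ACA snoRNA within TAF1D, had 122 and 127 reads with vehicle and 112 and 58 with LY500307 (log2 fold change -0.76, standard error 0.31), which became -0.40 when LY500307 replicate 2 was left out. SNORD56 and SNORD19 also missed the criteria when that sample, LY500307 replicate 1 or vehicle replicate 1 was left out. In the annotation used here the symbol SNORA40 covers 2275 exonic bases, many times the 70 to 150 of the other snoRNA rows, so that its reads may come from copies outside TAF1D.

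For these snoRNA rows the values of the host were on the same side in GNL3 (-0.28) and TAF1D (-0.47) and near 0 in NOP56 (-0.08). SNORD57 was also far from 0 without LY500307 replicate 2 (log2 fold change -1.35) and without LY500307 replicate 1 (-1.54). Another 8 tested rows in hosts of this module were within an absolute log2 fold change of 1, from -0.47 for SNORD5 to 0.86 for SNORA25, and did not meet the criteria, and SNORA51, at -1.18 (42, 10, 15 and 11 reads), missed them as well. These 3 rows are named after their values were seen. The reads of 50 bases and the filtering on unique alignments limit counts on snoRNA genes, and reads from an unspliced host cannot be told apart from reads of the snoRNA where strand and position agree.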

How the data were processed

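The data were RNA-seq libraries of SKOV3-ALDH+ OCSCs, 2 with vehicle and 2 with 5 µM LY500307 for 24 h, grouped by their labels. The labels name a total RNA kit and single-end reads of 50 nt, and the methods name stranded mRNA-seq. Per the labels and the study's methods, the authors aligned reads to hg19 with TopHat2 2.0.8b, counted them per gene symbol with HTSeq and deposited raw counts without normalization. Whether counting used strand is not given in the sources used here. The tally lines for reads outside genes (17.3% to 20.5% on no feature) were left out of library sizes and tests.

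Counts were fitted in R 4.3.3 with edgeR 4.0.16 (TMM, filterByExpr, quasi-likelihood test, Benjamini-Hochberg adjustment over all genes tested). DEGs had p below 0.05 before adjustment and a log2 fold change beyond 0.5 in either direction. Standard errors are the size of the log2 fold change over the square root of F. CPM used TMM-scaled library sizes, and log2 differences of single samples used a prior count of 0.5. Genes named with all values are the 3 miRNA genes, the best known gene of each role, the highest and lowest of each role and all DEGs. The members and lists were chosen with earlier results of these data known. Exonic GC content and length came from GENCODE v44lift37 on GRCh37, to which 91.6% of symbols were matched, 2138 by an older symbol. Promoters and miRNAs came from RefSeq.

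The alternatives were library totals alone, DESeq2 1.42.0 or only its size factors, other filters, small RNA rows left out, a replicate block, a GC correction (loess, span 0.3) and leaving out each sample. The replicate block with GC correction was added after seeing the data. In a test on simulated counts for this comparison (14300 genes), 99.5% of 200 genes shifted by 1 on the log2 scale met the criteria, as did 233 unchanged genes. The shifted genes were drawn from genes with higher CPM than the miRNA and snoRNA rows, so that share does not cover those rows.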

Additional observations from a re-analysis of the deposited data

How the results depend on the processing

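Of the protein-coding genes, 38 to 41 of 41 kept the sign of their log2 fold change when no sample was left out, and 31 did without LY500307 replicate 2. The number of the 44 genes that met the DEG criteria was 3, and it was 0 when small RNA rows were left out, since the 3 are miRNA genes. It was 4 with the replicate block, where NPM1 met them too (log2 fold change -0.51), and 2 with GC correction. With 1 sample left out it was lowest at 1 (LY500307 replicate 2 left out) and highest at 10 (LY500307 replicate 1 left out). The median log2 fold change of the 41 genes (-0.07) then ran from -0.145 (without LY500307 replicate 1) to -0.0297 (LY500307 replicate 2 left out).

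Among the other pathway genes, the 3 DEGs became 5 with library totals alone, with all genes of at least 1 count and with the replicate block, and 1 (without LY500307 replicate 2) to 25 (without LY500307 replicate 1) when 1 sample was left out. Their median log2 fold change was between -0.0603 (LY500307 replicate 1 left out) and 0.0313 (replicate 2 left out). The number of snoRNA DEGs was 4, and it was 1 with DESeq2 and 2 with the replicate block plus GC correction. It was also 2 at a CPM above 1 in at least 2 samples (5 rows tested). The rows counted need not be among the same 4.

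The total of 669 DEGs was 717 with the replicate block, 587 with that block plus GC correction, and 352 (without LY500307 replicate 2) to 1987 (without LY500307 replicate 1) when 1 sample was left out. The share upregulated was 59.8%, 69.7% with library totals alone and 51.1% with the block and GC correction. Same-numbered samples did not deviate together (correlation -0.06 over 14473 genes). One such value from 2 samples per group cannot decide whether the numbers pair the samples. With 2 samples per group, an exact test on 1 value cannot go below p = 0.333, and few reads limit the miRNA and snoRNA rows.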

Other observations

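All small RNA rows together, the 3 miRNA genes and the hosted snoRNA rows among them, held 0.0248% and 0.0244% of gene counts with vehicle, 0.0198% in LY500307 replicate 1 and 0.0278% in LY500307 replicate 2. The first LY500307 sample was thus below vehicle and the second above it, while the 3 miRNA genes were above vehicle in both.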
